A study of Mus musculus with 8 samples.

Results

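Kupffer cell nuclei were chosen by their measured levels of 14 genes. A barcode with at least 300 detected genes was a member when it held at least 3 unique molecular identifiers (UMIs, 1 per captured RNA molecule) over Clec4f, Vsig4, Timd4, Cd5l and Marco from at least 2 of these genes, at most 1 UMI over the lipid-associated macrophage genes Gpnmb, Trem2, Mmp12 and Atp6v0d2, and at most 1 UMI over Stab2, Reln, Pkhd1, Cd3e and Pax5, genes of endothelial, stellate, bile duct, T and B cells. The rule found 3088 of the 59446 nuclei in the 7 libraries used. The library of RD tumour 1, with exactly 20000 barcodes, was not used, and the 8 libraries together held 79446 nuclei with at least 300 genes. Members numbered 931, 409 and 348 in RD no tumour 1 to 3, 496 in RD tumour 2, and 185, 416 and 303 in WD tumour 1 to 3.

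The nuclei came from snap-frozen livers of male DIAMOND mice, a 129A1/SvIm by C57BL/6J cross in which a Western diet leads to fatty liver disease and liver tumours, sequenced with 10x Chromium 3′ version 3.1 chemistry, 1 library per mouse. All mice ate Western diet (WD: fatty chow with fructose and glucose in the water) for at least 36 weeks. The WD tumour mice (n = 3) stayed on it for 48 weeks and had hepatocellular carcinoma (HCC, the main liver cancer). The RD no tumour mice (n = 3) were returned to standard chow after 36 weeks and had no detectable HCC, and RD tumour 2 had the same reversal and HCC. Every group had thus been on Western diet, and no group of mice kept on chow throughout is used here. The final diet and the tumour both separate the first group from the second and cannot be told apart here. The labels give 48 weeks as the age at the end, the series text gives 48 weeks on the diet from 2 months of age, and these differ. Whether tumour tissue was in the piece taken is not given in the sources used here.

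Kupffer cells are the resident macrophages of the liver. They sit inside the sinusoids, take up bacteria, lipoproteins, aged red blood cells and cell debris through scavenger and complement receptors, and return iron from haem to the blood. Their identity depends on signals from neighbouring endothelial, stellate and hepatocyte cells, among them Notch ligands, BMP and TGF beta, and on the nuclear receptor LXR alpha. In steatohepatitis, Kupffer cells that carry Timd4 are known to decline while monocyte-derived macrophages settle, some of them lipid-associated macrophages.

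The promoters of the marker genes are shown because the rule rests on these genes and because Marco differed most between mice among them. Each run is 300 bases, from 250 before to 50 after the start of the RefSeq gene (build GRCm38.p6, printed 5′ to 3′ on the gene's strand). Marco is at chr1:120504975-120505274 on the minus strand, Clec4f at chr6:83656067-83656366 on the minus strand and Cd5l at chr3:87357631-87357930 on the plus strand. Capitals mark GAGGAA, the core bound by the macrophage factor PU.1, and TGCTGA, the core of the site bound by MAF factors, on either strand (TTCCTC and TCAGCA on the other).
Marco: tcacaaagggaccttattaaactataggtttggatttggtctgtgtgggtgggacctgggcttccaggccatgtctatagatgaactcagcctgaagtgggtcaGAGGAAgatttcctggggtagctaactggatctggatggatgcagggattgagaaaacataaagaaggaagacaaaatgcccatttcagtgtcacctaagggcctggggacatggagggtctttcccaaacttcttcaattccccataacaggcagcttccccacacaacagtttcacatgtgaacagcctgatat
Clec4f: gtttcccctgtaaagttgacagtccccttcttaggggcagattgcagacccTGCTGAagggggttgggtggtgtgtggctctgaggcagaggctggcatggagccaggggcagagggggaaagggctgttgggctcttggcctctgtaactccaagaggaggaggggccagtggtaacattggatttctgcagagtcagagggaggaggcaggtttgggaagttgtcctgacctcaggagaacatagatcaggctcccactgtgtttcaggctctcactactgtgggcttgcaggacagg
Cd5l: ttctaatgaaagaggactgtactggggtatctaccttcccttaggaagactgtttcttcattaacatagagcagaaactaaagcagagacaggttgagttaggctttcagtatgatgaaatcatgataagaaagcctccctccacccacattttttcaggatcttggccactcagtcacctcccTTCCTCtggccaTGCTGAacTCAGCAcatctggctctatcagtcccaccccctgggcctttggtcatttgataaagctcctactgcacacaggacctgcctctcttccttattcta

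TGCTGA was in the promoters of 4 of the 5 markers (Clec4f, Vsig4, Timd4 and Cd5l) and was not in that of Marco. GAGGAA was in those of Vsig4, Cd5l and Marco. Over the 5 markers and the 20 other genes with the largest excess in Kupffer nuclei (named below), 23 of 25 genes had an entry, with 29 promoters, some of which share sequence because they belong to the same gene. TGCTGA was in 16 of the 29, or 55.2%, for 14 of the 23 genes, against 19.5% of all 32851 promoters of the same length. GAGGAA was in 5, or 17.2%, against 28.3% of all. AGGTCA, the element of nuclear receptors such as LXR, was in 7, or 24.1%, against 16.3%. No match of one motif overlapped a match of another in these 29 promoters. These are letter matches in a short window, with no test.

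The label was checked against genes that the rule did not use. Of 25 further Kupffer identity genes, 22 had a higher CPM (UMIs of a gene per 1000000 UMIs) in members than in all other nuclei in each of the 7 mice, with a median fold of 3.66. Of all 21575 genes with a UMI in members, 3029, or 14.04%, were higher in each mouse. The exceptions were Slco2b1, Scp2 and Rxra, which hepatocytes also express. Of 20 pan-macrophage genes, 19 were higher in every mouse (median fold 3.78). Markers of other cell types were also present in members: 10 hepatocyte markers made up 191 to 283 per 10000 UMIs, against 226 to 341 in all other nuclei. The 10 sinusoidal endothelial markers, of which macrophages also express Mrc1, made up 7.26 to 13.3 per 10000, and the 10 stellate and fibroblast markers 1.66 to 6.29. None of the markers of any other class was at 0 over all members. The part of this other RNA in the results below was not tested, except where a value is given.

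The libraries used held 6048 to 10376 nuclei with at least 300 genes. Members summed to between 492672 (WD tumour 1) and 2879279 UMIs (RD no tumour 1), with 1655 (RD tumour 2) to 3054 (WD tumour 2) UMIs in the median member. Mitochondrial RNA made up a median of 5.04% and 5.14% of a member's UMIs in WD tumour 1 and 3 and 1.06 to 2.93% in the other 5 mice. Among the members' profiles the closest pair crossed the groups: RD no tumour 1 with WD tumour 2 (r = 0.935 over 13130 genes, which are not independent replicates). Both stand apart from the rest in several genes below. Any pair of the 8 libraries shared 8 to 65 barcode sequences. The rule's UMI threshold left 664 members at exactly 3 marker UMIs and 1477 nuclei outside it at 2. A further 284 nuclei reached 3 UMIs from a single marker. The ceilings on the lipid-associated and on the other cell genes took out 317 and 1520 of the 4760 nuclei that met the marker threshold, some of them both.

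The 5 marker genes chose the members, so their levels are a description. Most members were known by few of them: 1070 had UMIs of 2 markers, 1060 of 3, 760 of 4 and 198 of all 5. Cd5l, a secreted scavenger protein that protects macrophages from cell death, had 1058, 746 and 1175 CPM in RD no tumour 1 to 3, 638 in RD tumour 2, and 1149, 1018 and 1331 in WD tumour 1 to 3. It was detected in 78.6 to 93.1% of members in each mouse, the widest reach of the 5 except in RD no tumour 2, where Clec4f reached 89.00% and Cd5l 86.3%. Clec4f, a lectin receptor that mouse Kupffer cells alone carry, had 526, 1368 and 989 CPM in RD no tumour 1 to 3, 522 in RD tumour 2, and 1175, 246 and 1396 in WD tumour 1 to 3. Its low values in WD tumour 2, RD tumour 2 and RD no tumour 1 cut across the groups, and only 36.8% of members of WD tumour 2 held a Clec4f UMI, against 89.7% in RD no tumour 3. Vsig4, a receptor for complement-coated particles, had 554, 729 and 614 CPM in RD no tumour 1 to 3, 328 in RD tumour 2, and 769, 537 and 689 in WD tumour 1 to 3. Timd4, a receptor for phosphatidylserine on dying cells, had 240.0, 329.9 and 193 CPM in RD no tumour 1 to 3, 274 in RD tumour 2, and 341, 146 and 396 in WD tumour 1 to 3.

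Marco, a scavenger receptor for bacteria and modified lipoproteins, was at 259.8, 116 and 144 CPM in RD no tumour 1 to 3, 379 in RD tumour 2, and 0, 305 and 10.1 in WD tumour 1 to 3. In UMIs these were 748, 163 and 147, then 546, and 0, 435 and 8 in the same order. The member nuclei of WD tumour 1 and WD tumour 3 held almost no Marco RNA, while WD tumour 2 lay among the reversed mice. With 3 UMIs as the floor that a count of 0 allows, the level in WD tumour 1 was at least 19.0-fold lower than in RD no tumour 2, the lowest of the 5 mice other than WD tumour 3. The mice come from a cross of strains, and which strain's copy of Marco each mouse carried is not given in the sources used here; its part in these values was not tested. The same 2 mice also had the highest mitochondrial share, whose part in the difference was not tested. The low level was not particular to the gate: over all nuclei of the library Marco was at 0.501 and 0.691 CPM in WD tumour 1 and 3 and at 12.7 to 82.5 in the other 6, RD tumour 1 included (18.6). Marco lies at chr1:120474538-120505024 (GENCODE M21, GRCm38).

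**Figure D1:**
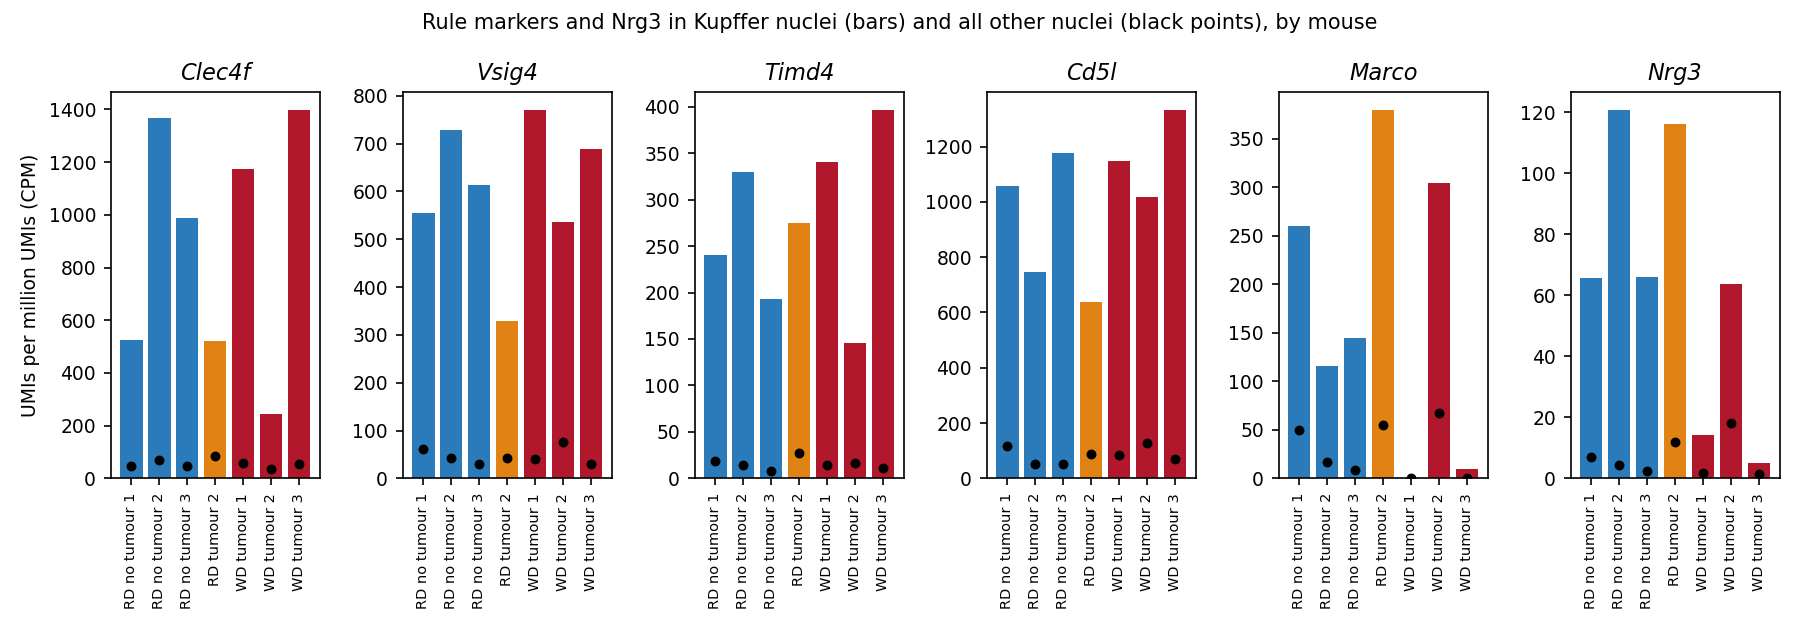
Bars give the CPM of the 5 rule markers and Nrg3 in the summed Kupffer nuclei of each mouse and black points the CPM in all other nuclei of the same mouse; blue is RD no tumour, orange RD tumour and red WD tumour. Marco and Nrg3 were lowest in WD tumour 1 and 3, whereas Clec4f was lowest in WD tumour 2.

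Each marker was then measured in nuclei chosen by the other 4 alone, which frees its level from its own part in the rule. In edgeR's quasi-likelihood test over the mice, none of the 5 passed between WD tumour and RD no tumour: log2 fold changes were -0.03 (SE 0.65) for Clec4f, 0.02 (SE 0.26) for Vsig4, 0.16 (SE 0.38) for Timd4, 0.25 (SE 0.26) for Cd5l and -0.90 (SE 1.13) for Marco, with adjusted p from 0.901 to 1.0. By this gate Marco was at 227 CPM in WD tumour 2 and at 0 and 10.1 in WD tumour 1 and 3, so its error is wide. The shares that follow are of members by the full rule, which uses Timd4 and Clec4f themselves, so they are a description. With every nucleus thinned to 1000 UMIs, Timd4 was detected in 9.12 (WD tumour 2) to 33.7% (WD tumour 3) of members and in 0.596 to 1.88% of other nuclei. Clec4f was detected in 20.4 to 71.4% and 3.02 to 6.68% respectively. Thinning left out 2 to 115 members a mouse that were shallower.

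Members made up 9.06, 6.76 and 3.36% of nuclei in RD no tumour 1 to 3, 4.78% in RD tumour 2, and 2.87, 5.89 and 3.42% in WD tumour 1 to 3 (mean 6.4 ± 2.87% against 4.06 ± 1.61%, SD, n = 3 each). The Wilson 95% interval, which covers counting error only, was 8.52 to 9.63% for the highest share and 2.49 to 3.30% for the lowest. The groups overlapped. The difference of mean log2 shares, WD tumour minus RD no tumour, was -0.61 (two-sided exact permutation p = 0.3; 3 mice against 3 cannot go below 0.1). After thinning, the shares were 6.49, 5.68 and 3.17%, 3.86%, and 2.92, 3.60 and 4.37%, and the difference was -0.45 (exact permutation p = 0.3). A share of nuclei depends on how many nuclei of every kind were recovered and, since the rule needs 3 UMIs, on depth.

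The 20 genes outside the rule with the largest excess over all other nuclei, among those of at least 50 CPM in members, are given as a description because the gate made the contrast. The list was led by Kcnj16, a subunit of inwardly rectifying potassium channels, at 19.4 times the CPM of other nuclei. Tmc3 (18.97-fold), the long non-coding RNA Gm49742 (18.7-fold), the uncharacterised Gm11099, annotated as protein coding (18.7-fold), and the potassium channel Kcna2 (17.4-fold) followed. Receptors on the list were Cd163, which binds haemoglobin with haptoglobin (16.8-fold), and Cmklr1, the chemerin receptor (11.2-fold). Host defence genes were Aoah, which inactivates endotoxin (11.1-fold), and Naip5, which senses flagellin (10.99-fold). Spic, a transcription factor of iron-recycling macrophages, was 11.2-fold higher, and Nrg3, a neuregulin growth factor, 11.1-fold. The other members were Ms4a8a, Pcolce2, Mmp27, Ctla2b, Ksr2, Ccdc148, Trim30c, Epb41l3 and Btbd11. All 20 were higher in members than in other nuclei of the same mouse in 7 of 7 mice.

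These genes were not equally steady between mice. Mmp27, a matrix metalloproteinase, had 115, 106 and 107 CPM in RD no tumour 1 to 3, 61.8 in RD tumour 2, and 122, 91.8 and 115 in WD tumour 1 to 3. The lowest of these was in RD tumour 2. Gm11099 had 675, 844 and 519.9 CPM in RD no tumour 1 to 3, 355 in RD tumour 2, and 505, 631 and 571 in WD tumour 1 to 3. By contrast Kcnj16 had 153, 497 and 355 CPM in RD no tumour 1 to 3, 97.97 in RD tumour 2, and 357, 63.1 and 429 in WD tumour 1 to 3, low in the same 3 mice in which Clec4f was low. Nrg3 had 65.6, 121 and 65.9 CPM in RD no tumour 1 to 3, 116 in RD tumour 2, and 14.2, 63.8 and 5.04 in WD tumour 1 to 3, low in WD tumour 1 and 3 as Marco was.

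The comparison of WD tumour with RD no tumour asked how Kupffer nuclei of mice kept on the diet with tumours differ from those of reversed, tumour-free mice. No gene passed: 0 of 13118 genes (0%) had an adjusted p under 0.05 in edgeR's quasi-likelihood test with Benjamini-Hochberg adjustment, the lowest being 0.346. At an unadjusted p under 0.05 there were 591 genes, or 4.51%. The 3 WD tumour mice lay wholly above the 3 RD no tumour mice in 661 genes (5.04%) and wholly below in 665 (5.07%). DESeq2 called 9 genes, all lower in WD tumour, among them Nnmt and the hepatocyte genes Serpina3k, Cyp2d9 and Cyp4a32. A term for the set of RD no tumour 1 and WD tumour 2 against the other mice gave 11 genes, 1 higher (Hamp2) and 10 lower. Among the lower were the hepatocyte-secreted Mup7 and Mup11. No label gives this set, which is the closest pair of member profiles above. It was drawn from these data and is not a known batch. Hepatocyte markers summed to 19138, 27994 and 28264 CPM in RD no tumour 1 to 3, 27803 in RD tumour 2, and 24294, 21997 and 24798 in WD tumour 1 to 3.

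Genes with at least 2 times the CPM of other nuclei and no overlap between the groups were ranked by p, and 12 higher and 11 lower genes are named; none passed the adjusted threshold (adjusted p = 0.981 for each by edgeR's test), so their values are given as measured. Runx1, a transcription factor of blood cell lineages, had 686, 609 and 636 CPM in WD tumour 1 to 3 and 315, 387 and 348 in RD no tumour 1 to 3 (log2 fold change 0.87, SE 0.20, unadjusted p = 0.00231). The WD tumour values were all above the others and close together, and RD tumour 2, with 258 CPM, lay below the RD no tumour mice. The uncharacterised 2510009E07Rik had 150.2, 169 and 195 CPM in WD tumour 1 to 3 and 99.3, 97.2 and 80.6 in RD no tumour 1 to 3 (log2 fold change 0.88, SE 0.19, unadjusted p = 0.00180). Tlr1, which senses bacterial lipopeptides with Tlr2, had 48.7, 53.3 and 56.8 CPM in WD tumour 1 to 3 and 32.3, 20.6 and 26.5 in RD no tumour 1 to 3 (log2 fold change 0.97, SE 0.24, unadjusted p = 0.00369). Dab2, an endocytic adaptor, had 197, 244 and 217 CPM in WD tumour 1 to 3 and 109, 153 and 113 in RD no tumour 1 to 3 (log2 fold change 0.80, SE 0.20, unadjusted p = 0.00423). Mcoln2, a cation channel of endosomes and lysosomes, was sparser, with 18.3, 25.9 and 23.96 CPM in WD tumour 1 to 3 and 7.64, 10.6 and 10.8 in RD no tumour 1 to 3 (log2 fold change 1.26, SE 0.32, unadjusted p = 0.00424).

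The actin-capping gene Capg, a member of the lipid-associated list, had 26.4, 28.04 and 35.3 CPM in WD tumour 1 to 3 and 15.3, 9.22 and 14.7 in RD no tumour 1 to 3. Kcnk13, a potassium leak channel, had closely grouped values, with 371, 351 and 354 CPM in WD tumour 1 to 3 and 222, 237 and 237 in RD no tumour 1 to 3. Ptpro, a receptor tyrosine phosphatase, had 36.5, 53.97 and 37.8 CPM in WD tumour 1 to 3 and 21.2, 26.2 and 22.6 in RD no tumour 1 to 3. The remaining 4 of these 12 were Amz1, Syn1, Atp8b4 and Bend6. For all 12 the log2 fold change lay between 0.62 and 1.26, and RD tumour 2 was below the 3 WD tumour mice.

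In the other direction, the lowest unadjusted p belonged to 1700017D01Rik, with 4.06, 8.41 and 5.04 CPM in WD tumour 1 to 3 and 37.2, 20.6 and 30.5 in RD no tumour 1 to 3 (log2 fold change -2.23, SE 0.40, unadjusted p = 5.00e-04), followed by Tmem117, a membrane protein, with 26.4, 32.9 and 21.4 CPM in WD tumour 1 to 3 and 71.5, 58.9 and 58.97 in RD no tumour 1 to 3 (log2 fold change -1.22, SE 0.24, unadjusted p = 8.90e-04). RD tumour 2 had 6.95 and 24.3 CPM of these, on the side of the WD tumour mice. Cd163 had 56.8, 36.4 and 55.5 CPM in WD tumour 1 to 3 and 67.03, 129 and 149 in RD no tumour 1 to 3 and 62.5 in RD tumour 2 (log2 fold change -1.24, SE 0.35, unadjusted p = 0.00721), so that RD no tumour 1 and the WD tumour mice were neighbours. Lepr, the leptin receptor, had 181, 132 and 135 CPM in WD tumour 1 to 3 and 201, 470.3 and 214 in RD no tumour 1 to 3 (log2 fold change -0.997, SE 0.35, unadjusted p = 0.0217). The non-coding genes Gm15674 and Gm15675 overlap on opposite strands of chromosome 1. Gm15675 had 129, 107 and 77.6 CPM in RD no tumour 1 to 3, 211 in RD tumour 2, and 46.7, 37.9 and 63.1 in WD tumour 1 to 3, and Gm15674 had 42.02, 34.1 and 23.6 CPM in RD no tumour 1 to 3, 52.8 in RD tumour 2, and 4.06, 11.2 and 13.9 in WD tumour 1 to 3 (log2 fold change -1.71, SE 0.39, unadjusted p = 0.00218), so that both were highest in RD tumour 2. The strand setting of the authors' counting is not given in the sources used here, so their reads may not be told apart. The remaining 5 were Lrrc3b, Gm13470, Catsperg1, Ms4a8a and Gm12610.

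**Figure D2:**
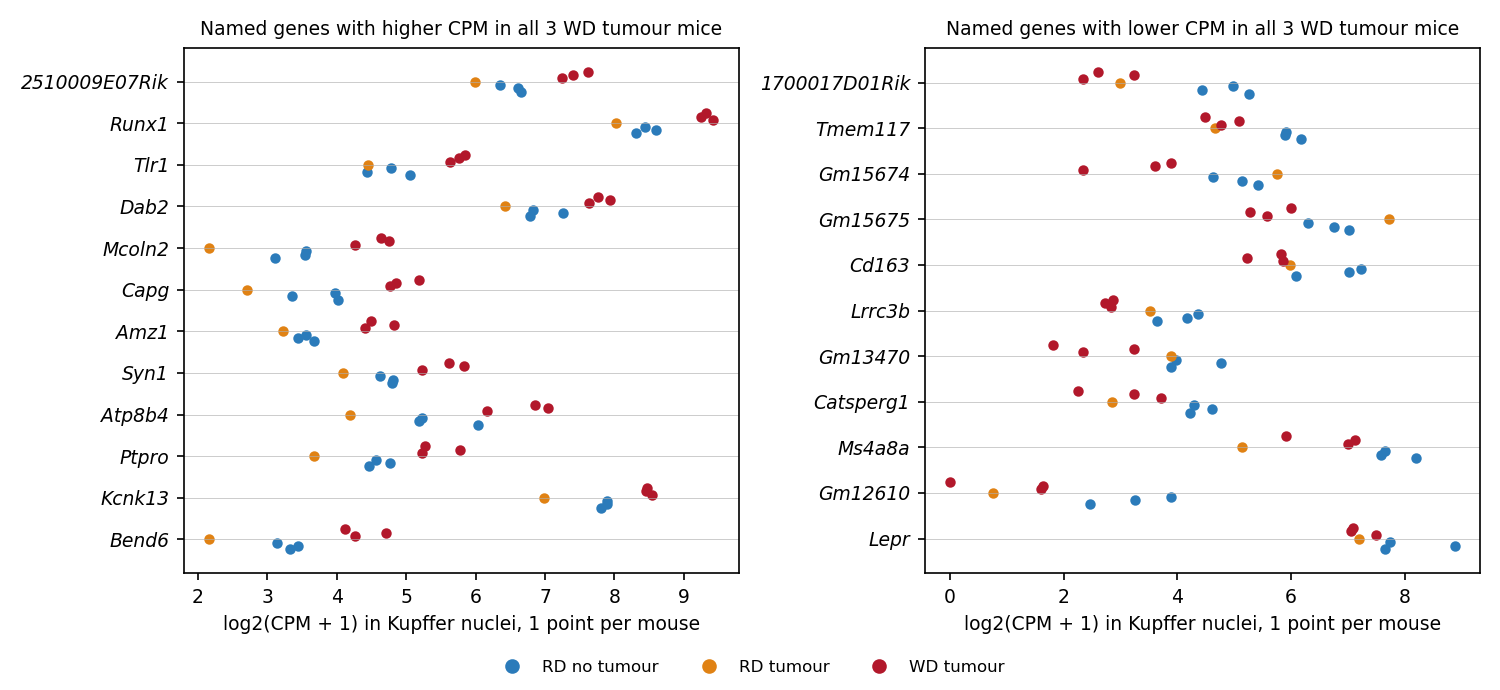
Each point is 1 mouse; the x axis is log2(CPM + 1) in its summed Kupffer nuclei, and the y axis lists the 12 named genes with higher (left) and the 11 with lower (right) CPM in WD tumour (red) than in RD no tumour (blue), with RD tumour 2 in orange. The choice of genes fixes that red and blue do not overlap; Runx1 and Kcnk13 show the tightest red groups.

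The fixed lists were described by their counts, beside all 13118 genes tested, whose median log2 fold change was -0.01. Of these 13118, 6422 were positive and 6682 negative. At an unadjusted p under 0.05 by edgeR's test, 254 were higher and 337 lower. No member of any of the 12 lists passed the adjusted threshold. Of the 11 MHC class II presentation genes, through which macrophages show antigen to CD4 T cells, all 11 had positive values (median 0.97), 5 at an unadjusted p under 0.05. H2-Aa had 46.2, 41.9 and 13.8 CPM in RD no tumour 1 to 3, 45.9 in RD tumour 2, and 201, 46.96 and 177 in WD tumour 1 to 3. Cd74, the invariant chain, had 106, 110.0 and 22.6 CPM in RD no tumour 1 to 3, 88.9 in RD tumour 2, and 353, 106 and 279 in WD tumour 1 to 3, and H2-Ab1 had 50.7, 58.9 and 14.7 CPM in RD no tumour 1 to 3, 42.4 in RD tumour 2, and 227, 58.2 and 166 in WD tumour 1 to 3. The high values belonged to WD tumour 1 and 3, and WD tumour 2 was level with RD no tumour 1 and 2. WD tumour 1 and 3 also had the highest median mitochondrial share of members (5.04 and 5.14%, against 1.06 to 2.93% elsewhere). With members of at most 5% mitochondrial UMIs alone, the list's median log2 fold change was 0.80. In the set of RD no tumour 1 and WD tumour 2 the list's median difference in log2(CPM + 1) was 0.02, and among the other 4 mice it was 1.44. Ciita, the switch of these genes, had 46.7, 21.7 and 36.6 CPM in WD tumour 1 to 3 and 18.1, 21.3 and 7.86 in RD no tumour 1 to 3. Class II genes are also genes of B and dendritic cells: the 6 B cell markers summed to 539, 414 and 548 CPM in RD no tumour 1 to 3, 457 in RD tumour 2, and 680.0, 476 and 797 in WD tumour 1 to 3, highest in WD tumour 1 and 3 too. Of the 3 of them that were tested, 1 was positive and 2 negative (median -0.10). Of the 6, 1 was higher in members than in all other nuclei in each mouse (median fold 0.69), so the sum does not speak for the list. Bank1, the only member tested in the Timd4 split below, was higher in Timd4-detected nuclei (log2 fold change 0.57). The 8 dendritic cell markers summed to 200.1, 194 and 179.9 CPM in RD no tumour 1 to 3, 145 in RD tumour 2, and 213, 264 and 229.5 in WD tumour 1 to 3, highest in WD tumour 2, and 1 of the 3 tested was positive (median -0.08). The part of either cell type's RNA in the class II values was not tested.

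Of the 21 lipid-associated macrophage genes tested outside the rule, 18 were positive (median 0.43), 8 at an unadjusted p under 0.05, 7 of them higher. Lpl, the lipoprotein lipase, had 17.02, 30.5 and 81.6 CPM in RD no tumour 1 to 3, 27.8 in RD tumour 2, and 87.3, 142 and 173 in WD tumour 1 to 3 (log2 fold change 1.68, SE 0.55, unadjusted p = 0.0156). Cd36, a fatty acid and lipoprotein receptor, had 44.1, 46.1 and 83.5 CPM in RD no tumour 1 to 3, 74.3 in RD tumour 2, and 119.8, 93.9 and 160.2 in WD tumour 1 to 3; other nuclei held more of it. Itgax had 14.2, 21.03 and 10.1 CPM in WD tumour 1 to 3 and 8.34, 2.84 and 3.93 in RD no tumour 1 to 3. The 1 lower was Ctsl, a lysosomal protease, with 791, 492 and 545 CPM in RD no tumour 1 to 3, 620.5 in RD tumour 2, and 280.1, 306 and 333 in WD tumour 1 to 3 (log2 fold change -1.005, SE 0.25, unadjusted p = 0.00362), lower in each WD tumour mouse. This list keeps its sign within both sets of libraries (median 0.52 and 0.54). The sets were drawn from these data, so this is a description. In members its 23 genes summed to 2675, 2666 and 2733 CPM in RD no tumour 1 to 3 and 2931 in RD tumour 2. In WD tumour 1 to 3 they summed to 2535, 2875 and 3097, so the sums of the groups overlapped. The rule keeps out nuclei with more than 1 UMI of the 4 lipid-associated rule genes. Under this ceiling they made up 0.365, 0.407 and 0.542 per 10000 UMIs of members in WD tumour 1 to 3 and 0.142 to 0.195 in the other 4 mice. In all other nuclei they made up 0.617, 0.668 and 1.10 in WD tumour 1 to 3 and 0.144 to 0.403 in the other 4 mice. The higher level of these 4 genes in WD tumour was thus not particular to members. Over the list of 23 genes outside the rule, the groups overlapped in other nuclei. The list summed there to 2321, 1664 and 1558 CPM in RD no tumour 1 to 3 and 2123 in RD tumour 2. In WD tumour 1 to 3 it summed to 1813, 2133 and 1668. St18, a transcription factor on this list, had 19.1, 92.2 and 118 CPM in RD no tumour 1 to 3, 436 in RD tumour 2, and 173, 179 and 241 in WD tumour 1 to 3, highest in RD tumour 2.

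The 25 identity genes did not lean one way: 12 were positive and 13 negative (median 0.00). Cadm1, an adhesion molecule, had 907, 1302 and 985 CPM in WD tumour 1 to 3 and 479, 550.5 and 703 in RD no tumour 1 to 3 (log2 fold change 0.87, SE 0.26, unadjusted p = 0.00974), and C6, a complement component, had 595, 349.8 and 556 CPM in WD tumour 1 to 3 and 831, 923 and 685 in RD no tumour 1 to 3 (log2 fold change -0.71, SE 0.27, unadjusted p = 0.0295). Cd207, langerin, had 38.6, 115 and 52.97 CPM in WD tumour 1 to 3 and 34.7, 28.4 and 5.90 in RD no tumour 1 to 3. Among the 20 pan-macrophage genes 15 were positive (median 0.17); Adgre1, which encodes F4/80, had 669.8, 625 and 711 CPM in WD tumour 1 to 3 and 508, 472 and 403 in RD no tumour 1 to 3, and Sirpa, the receptor of the don't-eat-me signal CD47, 538, 624 and 517 CPM in WD tumour 1 to 3 and 466, 316 and 306 in RD no tumour 1 to 3. Of 23 scavenger receptor and opsonin genes 17 were positive (median 0.17), with Stab1 at 118, 151 and 161 CPM in WD tumour 1 to 3 and 93.8, 92.2 and 80.6 in RD no tumour 1 to 3. The cholesterol efflux and LXR genes (15 of 17 positive, median 0.18) had no member at an unadjusted p under 0.05, and neither had the 22 interferon-stimulated genes (15 positive, median 0.12) or the 18 cell cycle genes (16 positive, median 0.39). Iron and haem genes were even (10 of 20 positive, median -0.03). The inflammatory genes (17 of 22 positive, median 0.35), the lysosome and autophagy genes (15 of 25, median 0.14) and the TGF beta, BMP and Notch inputs (12 of 18, median 0.12) held 2, 4 and 3 members at an unadjusted p under 0.05. The 2 inflammatory members were higher. Of the lysosome members 1 was higher and 3 were lower, and of the inputs 2 were higher and 1 was lower. Without WD tumour 2 the median turned to -1.58 for the cell cycle and -0.09 for the inflammatory list, and without RD no tumour 3 that of the interferon list was -0.18. Of the 12 lists, 6 changed sign between the library sets, which no label gives. The interferon list was at -0.59 in the set of RD no tumour 1 and WD tumour 2 and at 0.76 among the other 4 mice. The cell cycle list was at 0.77 and -0.63 and the identity list at -0.47 and 0.17. The cholesterol, iron, and TGF beta, BMP and Notch lists turned with smaller values.

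Some genes differed far more between mice of 1 group than the named genes did between groups. The 10 genes with the largest ratio of highest to lowest mouse were chosen by a rule added after the data were seen, and are described only. Negr1, a neuronal adhesion molecule, had 598, 101 and 143 CPM in RD no tumour 1 to 3, 125 in RD tumour 2, and 8.12, 2098 and 1.26 in WD tumour 1 to 3. Over the whole libraries it was at 427 CPM in RD no tumour 1, 1151 in WD tumour 2, and 3.70 to 86.1 in the other 6. Cxcl13, a chemokine that draws B cells, had 739.8, 226 and 121 CPM in RD no tumour 1 to 3, 502 in RD tumour 2, and 24.4, 1204 and 136 in WD tumour 1 to 3. Clec2g, a lectin, had 496, 86.5 and 52.1 CPM in RD no tumour 1 to 3, 193 in RD tumour 2, and 12.2, 843 and 29.01 in WD tumour 1 to 3, and Itgam, which encodes CD11b of monocytes and many macrophages, 113, 24.8 and 18.7 CPM in RD no tumour 1 to 3, 34.05 in RD tumour 2, and 24.4, 309.8 and 29.01 in WD tumour 1 to 3. All 4, with Gm15987, Sirpb1a and Saa3, an acute phase protein, were highest in RD no tumour 1 and WD tumour 2 among the 7 mice. The same 2 mice had the most neutrophil markers in members, 7.84 and 2.78 per 10000 UMIs against 0.953 to 1.95 in the other 5. Monocyte markers made up 10.9 and 6.25 per 10000 there and 3.03 to 6.11 in the others. The part of these cells' RNA in the 7 genes was not tested. Over whole libraries Cxcl13 was at 3403 CPM in RD tumour 1, above every other library, and at 847 in WD tumour 2. Marco, Nrg3 and St18 complete the 10.

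**Figure D3:**
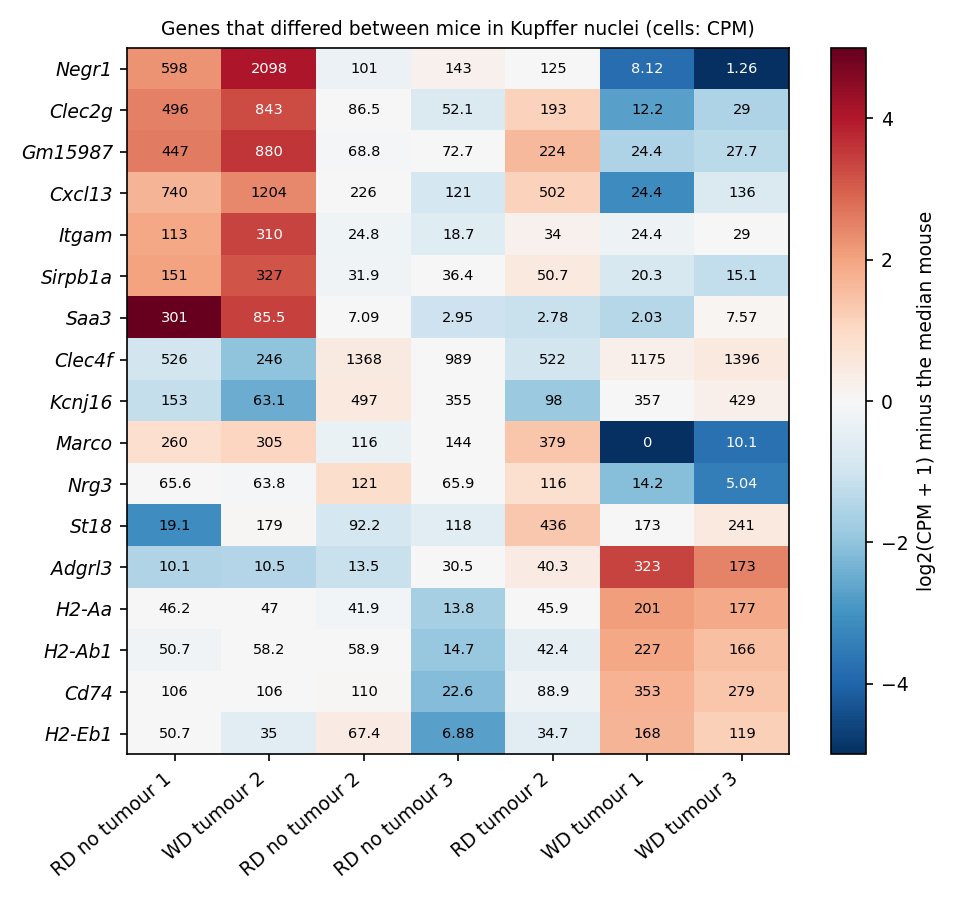
Rows are genes, columns are mice ordered with RD no tumour 1 beside WD tumour 2; numbers are CPM in the summed Kupffer nuclei, and colour is log2(CPM + 1) minus that gene's median mouse, cut at 5 in either direction. The upper rows were high in RD no tumour 1 and WD tumour 2, and the lower rows show low Marco and Nrg3 and high Adgrl3 and class II genes in WD tumour 1 and 3.

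RD tumour 2 was set against the 3 RD no tumour mice. With 1 mouse on a side, the test assumes that it varies like the others. No gene of 13118 passed (0%; 848 at an unadjusted p under 0.05), while DESeq2 called 13, 9 higher and 4 lower. Among the higher were Clps, Ctrb1 and Cela3b, genes of pancreatic digestive proteins, and among the lower Ms4a8a and Cd300lb, named after their values were seen. All 20 pan-macrophage genes and all 22 interferon-stimulated genes had negative values (medians -0.71 and -0.77), beside a median of -0.05 over all genes tested. Of all 13118, 7108 were negative. The 18 cell cycle genes were also all negative (median -0.99), as were 20 of the 25 identity genes (median -0.60). Each other fixed list had a negative median too, except the TGF beta, BMP and Notch list (0.09). Lower values were thus not particular to macrophage and interferon genes. In the same contrast 9 of 10 sinusoidal endothelial and 9 of 9 stellate markers were positive (medians 1.25 and 1.37), and stellate markers made up 6.29 per 10000 UMIs of its members against 1.66 to 3.88 in the other 6 mice; their part in these values was not tested. WD tumour against RD tumour 2 gave no gene of 13118 either (0%; 1506 at an unadjusted p under 0.05 and 95 by DESeq2). Both comparisons share this mouse.

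A test of the difference of differences asked which genes behaved otherwise in Kupffer nuclei than in all other nuclei of the same mice. None of 19145 genes passed in edgeR's quasi-likelihood test with the mouse as a block (0%), with 847 at an unadjusted p under 0.05 and 0 by DESeq2. The nearest were Nrg3 (log2 fold change -2.10, SE 0.37, adjusted p = 0.0911) and Adgrv1 (log2 fold change -1.81, SE 0.33, adjusted p = 0.0911), followed by Zfp532, Lepr, Tmem117 and Lpar1, all less in WD tumour Kupffer nuclei relative to the other nuclei. On the other side were Adgrl3 (log2 fold change 2.16, SE 0.48, adjusted p = 0.267), Slc8a1, F13a1, Hsf3, Arhgap15 and Cdh13. Adgrl3, an adhesion receptor of the latrophilin family, had 10.1, 13.5 and 30.5 CPM in RD no tumour 1 to 3, 40.3 in RD tumour 2, and 323, 10.5 and 173 in WD tumour 1 to 3, so that its position rests on WD tumour 1 and 3. Lepr and Tmem117 are also among the genes without overlap above. Without the low count filter 16 genes passed, 11 of them lower, and among these were Nrg3, Lepr and Adgrl3.

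Lipid-associated macrophage nuclei, chosen by at least 3 UMIs over Gpnmb, Trem2, Mmp12 and Atp6v0d2 and at most 1 UMI over the Kupffer markers, reached 20 in a single mouse, WD tumour 3 (46 nuclei), so no test could be made. The 2 opposite gates made this contrast, so its values are a description. There, 17 of 23 lipid-associated genes outside the rule were higher than in the members of the same library, and 23 of 25 Kupffer identity genes were lower. Of all 16384 genes with a UMI in either kind of nuclei, 45.3% were higher and 54.7% lower. Of the 5125 genes with at least 50 CPM in either kind, 54.8% were higher and 45.2% lower. Lpl was at 789 CPM (95% interval 659.6 to 936) against 173 CPM (95% interval 145 to 204) in members. Lgals3, galectin 3, was at 482 CPM (95% interval 382 to 599.6) against 115 CPM (95% interval 92.4 to 141). Slc40a1, the iron exporter ferroportin, was at 247 CPM (95% interval 177 to 335) against 1278 CPM (95% interval 1200.1 to 1359). C6 was at 54.2 CPM (95% interval 24.8 to 103) against 556 CPM (95% interval 505 to 611). The 6 lipid-associated genes that were not higher were Ctsb, Spp1, Pld3, Anxa5, Lipa and Olr1. The exact Poisson intervals cover counting error only.

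Monocyte nuclei, chosen in the same way by 6 genes (Ccr2, F13a1, Ly6c2, Vcan, Plac8 and Chil3), reached 20 in 3 mice: RD no tumour 1 (497), WD tumour 2 (32) and WD tumour 3 (22). Both kinds were chosen on measured genes, so the counts describe how far the gates separate and support nothing further. In edgeR's quasi-likelihood test with the mouse as a block, 579 of 10293 genes (5.63%) were higher in Kupffer and 352 (3.42%) in monocyte nuclei. Without RD no tumour 1, which holds most monocyte nuclei and whose monocyte nuclei also had 175 CPM of Mpo and 205 of Prtn3, genes of granulocyte progenitors, the counts were 132 and 108. Without WD tumour 2 they were 291 and 197, without the mouse block 269 and 155, and by DESeq2 196 and 169.

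Of 24 identity genes, 18 were higher in Kupffer nuclei and none lower (median log2 fold change 2.16, against 0.06 over all genes tested). Slc40a1 differed by 4.03, Spic by 3.59, Hpgd, which degrades prostaglandins, by 3.56 and Nr1h3, which encodes LXR alpha, by 2.55. Mertk, a receptor for apoptotic cells, at 3.60, and Mrc1, the mannose receptor, at 3.51, led the 9 pan-macrophage genes that were higher; Lyz2 (-2.66), Cx3cr1 (-1.71) and Cybb (-0.70) were lower. Cholesterol efflux genes were higher in 7 of 17 and lower in none, with Pltp at 2.53 and Abca1 at 1.91, and iron genes were higher in 7 of 19 and lower in none, with Hmox1, which opens the haem ring, at 2.94. H2-Ab1, H2-Aa and Ciita were lower in Kupffer nuclei, and Cd86, a co-stimulatory ligand, was higher.

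By fold, the 6 leading genes of the Kupffer side were Mmp27, Gm11099, Kcna2, Gm49906, Il1a and Gfra2. Over the 3 mice, Mmp27 was at 115, 91.8 and 115 CPM in Kupffer nuclei and 0, 0 and 0 in monocyte nuclei, at least 43.8-fold higher against a floor of 3 UMIs over the 3 mice. On the same floor Il1a, the alarmin interleukin 1 alpha, was at least 13.9-fold, Kcna2 at least 17.6-fold, Gm49906 at least 14.9-fold and Gfra2 at least 13.2-fold higher. Gm11099 had 1 UMI in monocyte nuclei, a ratio of 784 with a counting interval from 141 upwards. DESeq2 did not call Mmp27, Kcna2, Gm49906, Il1a or Gfra2. The monocyte side was led by Gm30489, Gm49144, Gpr141, AI839979 and Emb. Gm30489 and Gm49144 overlap F13a1, a gene of the monocyte gate, on the opposite strand. Their reads may not be told apart from those of F13a1, so the gate itself may have set their place. The receptor gene Gpr141 was at 22.6, 4.21 and 6.31 CPM in Kupffer nuclei and 359, 516 and 549 in monocyte nuclei. Emb, embigin, was at 17.02, 5.61 and 5.04 CPM in Kupffer nuclei and 289, 246 and 192 in monocyte nuclei.

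Within Kupffer nuclei, those with a Timd4 UMI were set against those without, mouse by mouse. Timd4-detected nuclei numbered 86 to 396 a mouse, from 22.6% of members in WD tumour 2 to 55.5% in RD no tumour 2. They were deeper in 7 of 7 mice: their median was 2839.5 against 1695 UMIs in WD tumour 1, the widest gap, and 2869 against 2852 in RD no tumour 2, the narrowest. Their median mitochondrial share was lower in 7 of 7 mice, with 3.93 against 6.77% in WD tumour 1, the widest gap, and 2.86 against 3.02% in RD no tumour 2. The part of depth and of this share in the counts was not tested. The split uses Timd4 itself, so the counts below are a description. A nucleus without a Timd4 UMI may still express the gene. With the mouse as a block, 618 of 8803 genes (7.02%) were higher and 832 (9.45%) lower in Timd4-detected nuclei by edgeR's quasi-likelihood test. DESeq2 gave 402 and 498. Without the block no gene passed. With both sides chosen by the other 4 markers, an alternative added after the data were seen, 705 were higher and 993 lower. Of the 1450 calls, 1420 were shared in direction. The nuclei without a Timd4 UMI were the same as in the main split, and the Timd4-detected ones were a part of it. The sharing was therefore largely set in advance and is no separate check.

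The higher genes were mostly those of Kupffer nuclei: of 1143 tested genes at 2 or more times the CPM of other nuclei, 462 (40.4%) were higher and 7 lower, and of the other 7660, 156 (2.04%) were higher and 825 (10.8%) lower. The 10 hepatocyte markers all had negative values and 9 were lower; per 10000 UMIs they made up 174 to 265 in Timd4-detected and 206 to 312 in other members, lower in 7 of 7 mice. Of the endothelial markers Kdr, Ptprb and F8 were lower and Mrc1 was higher. The part of this RNA in the counts was not tested.

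The leading higher genes were Aoah, Rgl1, Cd55, D130040H23Rik, Adgre4 and Lepr. Aoah had 247 to 879.7 CPM (median 628) in Timd4-detected nuclei and 97.2 to 476 (median 325) in the others, higher in 7 of 7 mice (log2 fold change 0.88, SE 0.09, adjusted p = 4.07e-05 by edgeR's test). Cd55, which shields cells from complement, had 115 to 352 CPM (median 245) in Timd4-detected nuclei and 55.04 to 203 (median 106) in the others, in 7 of 7 mice (log2 fold change 1.14, SE 0.14, adjusted p = 1.92e-04). Rgl1, an exchange factor for Ral GTPases, differed by 0.85, Adgre4, a relative of F4/80, by 0.73 and Lepr by 1.11 on the log2 scale, each in 7 of 7 mice. On the lower side were Negr1, Hsf3, Col18a1, Herpud1 and Gsta3. Gsta3, a glutathione transferase abundant in hepatocytes, had 71.9 to 713 CPM (median 467) in Timd4-detected nuclei and 104 to 989 (median 538) in the others (log2 fold change -0.58, SE 0.10, adjusted p = 8.86e-04). Negr1 had 0 to 769.8 CPM (median 87.5) in Timd4-detected nuclei and 2.52 to 2537 (median 165) in the others and was lower in 7 of 7 mice (log2 fold change -1.23, SE 0.15, adjusted p = 1.92e-04), and Hsf3, a heat shock factor, was lower in 6 of 7 (log2 fold change -2.09, SE 0.28, adjusted p = 2.49e-04).

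By list, 12 of 24 identity genes were higher and 1, Scp2, which hepatocytes also express, lower (median 0.42, against -0.03 over all genes tested). Those with the largest values were Kcna2 (1.10), Cd163 (0.90), C6 (0.82), Spic (0.75) and Cdh5 (0.74). Iron genes were higher in 5 of 19 and lower in 2, with Hmox1 at 0.70 and Slc40a1 at 0.63. Pan-macrophage genes were higher in 7 of 20, led by Mertk (0.50), and scavenger genes in 7 of 23, with Msr1, scavenger receptor A, at 0.59; none of either was lower. Cholesterol genes split, with Soat1 (0.65), which esterifies cholesterol, and Abca1 (0.47) among 6 higher, and Lpcat3, Apoc1 and Apoe, which hepatocytes also make, lower.

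Interferon-stimulated genes were higher in 5 of 13 and lower in none, with Trim30a at 0.67, and inflammatory genes in 4 of 13, with Il1a at 1.38 and Icam1 at 0.80. Of 10 MHC class II presentation genes, the co-stimulators Cd86 (0.79) and Cd80 (0.77) were higher, and the class II chains did not pass: H2-Ab1 was at -0.35 (adjusted p = 0.143) and Ciita at -0.74 (adjusted p = 0.0963). None of 19 lipid-associated genes passed in either direction. In the lysosome list Mitf and Tfeb, related transcription factors of lysosomal genes, were the 2 of 24 that were higher, and Csf1r was the 1 of 18 in the TGF beta, BMP and Notch list. Neither of 2 cell cycle genes passed.

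**Figure D4:**
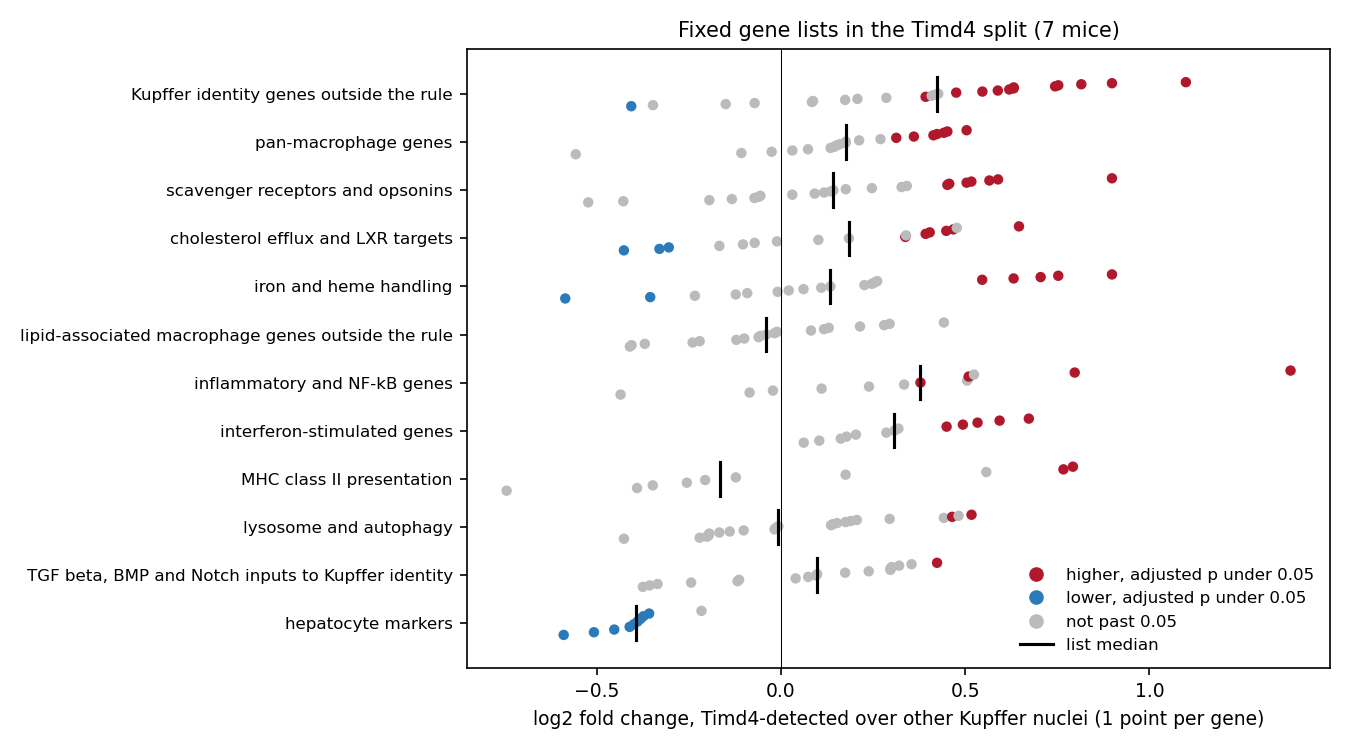
Each point is a gene of a fixed list; the x axis is its log2 fold change in Timd4-detected over other Kupffer nuclei in the fit over 7 mice, red and blue mark adjusted p under 0.05, grey those not past it, and black bars are list medians. The identity list lay mostly to the right and the hepatocyte markers to the left of 0.

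The same split by Marco, added after the data were seen, could be made in 5 mice, with both sides chosen by the other 4 markers. None of 9214 genes passed (0%; 425 at an unadjusted p under 0.05, 0 by DESeq2), and the lowest adjusted p was 0.0537. Leaving out RD no tumour 2 or WD tumour 2 gave 2 and 1 genes, and dropping the low count filter gave 18.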

How the data were processed

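The authors deposited 1 matrix of unnormalised UMI counts for each mouse. Cell Ranger 7.0.0 made it, as its header and the submitters' processing notes say, and the notes name build mm10; the annotation, strand setting and barcode calling are not given in the sources used here. Each file lists 32285 genes. Nothing was adjusted for free RNA. The members and gene lists were chosen with earlier results of these data known. Members' counts were summed per mouse (492672 to 2879279 UMIs), and the mouse was the replicate. The main test was edgeR 4.0.16 (quasi-likelihood, TMM, filterByExpr) in a model of the 3 groups, with Benjamini-Hochberg adjustment at 0.05, without a block between groups and with the mouse as a block between kinds of nuclei; rule genes were left out of counts. DESeq2 1.42.0 was an alternative. The SE printed with edgeR's values is the absolute log2 fold change divided by the square root of the test's F statistic. Fits were tested on simulated data. Between WD tumour and RD no tumour, 82.8% of 4-fold and 93.0% of 16-fold changes were recovered, with 11 false calls among 12655 genes. The simulated mice shared the same mean profile, the spread followed the trend over all genes, and sparse genes were not changed. Doublets stayed in; leaving out the highest Scrublet scores (scanpy 1.11.5) was an alternative. Named genes were the 12 per direction with the lowest p, no overlap between groups and at least 2 times the CPM of other nuclei; 6 per direction by fold (monocytes, at least 20 CPM) or by p (Timd4, difference of differences); 20 by fold over other nuclei; and any list member. A few genes that meet these rules are not reported here. Positions are from GENCODE M21 (GRCm38) and promoters from RefSeq (GRCm38.p6). The labels do not say how tissue pieces were taken.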

Additional observations from a re-analysis of the deposited data

How the results depend on the processing

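For WD tumour against RD no tumour, DESeq2 gave 9 genes, the term for library sets 11, and leaving out each mouse 0 to 2 (2 without RD no tumour 1, Mup7 and Mup11; 1 without WD tumour 2, Serpina1e); the replicate block gave 0 genes, as did the other alternatives. No label says that the replicate numbers pair the mice. Same-numbered mice correlated at -0.41, -0.32 and 0.10 in their deviations from the group means. With 3 mice a group, these values cannot decide whether mice were paired. RD tumour 2 against RD no tumour gave 13 genes by DESeq2. WD tumour against RD tumour 2 gave 95 by DESeq2 and 8 without the low count filter. The difference of differences gave 16 without that filter. Kupffer against monocyte nuclei gave 931 genes, 365 by DESeq2, 424 without the mouse block and 240 to 982 with each mouse left out (240 without RD no tumour 1, 488 without WD tumour 2). The Timd4 split gave 1450 genes, 900 by DESeq2 and 0 without the mouse block. The Marco split gave 0 genes, 18 without the filter and 0 to 2 with each mouse left out. The causes were not tested. The share difference kept its sign, from -1.02 to -0.30 over all alternatives. Vsig4 turned from 0.02 to -0.014 without the filter, and Kcnk13 to -0.014 without nuclei holding markers of other cells. The other named genes kept their direction in each alternative that tested them. For the genes named for no overlap between the groups, that choice largely set this in advance. The median of the MHC class II list ran from 0.65 to 1.20 and that of the lipid-associated list from 0.19 (without WD tumour 2) to 0.69 (without RD no tumour 1). Medians that turned sign ran from -1.58 to 1.96 for the cell cycle, -0.09 to 0.96 for the inflammatory, -0.18 to 0.63 for the interferon, -0.29 to 0.20 for the identity, -0.16 to 0.16 for the iron, -0.03 to 0.25 for the TGF beta, BMP and Notch and -0.01 to 0.28 for the pan-macrophage list. The other 3 lists stayed positive. At 3 mice a group, the simulated 4-fold changes were mostly recovered, and smaller ones were not simulated. Genes that vary more between mice than the trend over all genes were not simulated either. The lack of calls therefore does not exclude 4-fold changes. The comparison with lipid-associated nuclei was not run, for want of mice.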
